A study of Mus musculus with 8 samples.

Results

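The transcripts of 10 digestive enzymes of the small intestinal brush border were followed in crypts and villi of Ctrl and Gli1-PtgscKO mice: the disaccharidases Sis, Lct, Mgam and Treh, the peptidases Anpep, Dpp4, Enpep, Mme and Ace, and the phosphatase Alpi. They were chosen by name, as classical enzymes of this membrane, and looked up by symbol in the gene tables of both tissues. All 10 were found, among 11554 genes in the crypt table and 12701 genes in the villus table, and 11227 genes were in both. In crypts none of the 10 passed a test between the genotypes. The libraries of the genotypes overlapped for all 10, as they did for 79% of all genes. In villi only 1 distinct Ctrl library was available, and values are described rather than tested. There Mgam and Mme were over 2-fold above Ctrl in both Gli1-PtgscKO libraries, as were 10.6% of all genes. Once the counts were corrected for transcript length neither was, beside 6.8% of all genes.

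The brush border is the carpet of microvilli on the lumen side of absorptive enterocytes. Its membrane carries the last enzymes of digestion, which split disaccharides, starch fragments and short peptides into the sugars and amino acids that neighbouring transporters take up. Enterocytes arise in the crypts and switch these genes on as they move onto the villus, so the enzymes are widely used as markers of enterocyte maturation.

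RNA was sequenced from freshly collected epithelial cells of the small intestine of C57BL/6 mice, separated into crypts and villi, 1 month after tamoxifen. Ctrl mice are labelled WT, and the sample notes describe them as Gli1-CreERT2; Rosa26-tdTomato, whereas the study elsewhere gives its Ctrl mice as floxed for Ptgs1 and Ptgs2 and names no Cre, so whether the Ctrl mice sequenced here carried Cre was not settled. In Gli1-PtgscKO mice a tamoxifen-inducible Cre, driven by Gli1, deletes floxed Ptgs1 and Ptgs2, the genes of the prostaglandin-producing cyclooxygenases COX1 and COX2, in Gli1+ mesenchymal stromal cells, whereas the RNA was taken from the epithelium. Each genotype and tissue had 2 deposited libraries, but the 2 Ctrl villus columns held identical values and were counted as 1 library, which leaves 4 distinct crypt and 3 distinct villus libraries.

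The libraries held between 16853017 and 21121714 reads on listed genes in crypts and between 13477600 and 15751024 in villi, and the least read member, Treh, still had 51.5 CPM (counts scaled to a total of 1000000 in each library over the 11227 genes of both tables) or more in every library. Ptgs1 gave 365 and 164 normalized counts in Ctrl and 178 and 199 in Gli1-PtgscKO crypts, which overlap, and 90.4 in Ctrl and 50.5 and 92.7 in Gli1-PtgscKO villi, while Ptgs2 and Gli1 were not among the listed genes, so the deletion in stromal cells could not be checked here. The separation of the tissues could be: the summed level of 8 stem and dividing cell markers was between 5402 and 6430 CPM in crypts and between 177 and 466 CPM in villi, and that of 8 enterocyte markers was between 3533 and 4551 CPM in crypts and between 26516 and 30334 CPM in villi. Because bulk RNA was measured, fewer cells of a type and less RNA per cell cannot be told apart in any of the values that follow.

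Levels of different members were compared as CPM per kilobase of the longest annotated transcript (RPKM). Anpep, the aminopeptidase N that removes neutral amino acids from the ends of peptides, was the most abundant in both tissues, with 437 ± 108 RPKM over the 4 crypt libraries and 1030.0 ± 187 RPKM over the 3 villus libraries (SD, both genotypes together). It did not overlap with the next member in either tissue. In crypts there followed a group of 3 members whose libraries overlapped, namely Sis, the sucrase-isomaltase, at 216 ± 53.8 RPKM, Alpi, the intestinal alkaline phosphatase, at 212 ± 76.8 RPKM, and Mgam, the maltase-glucoamylase of starch digestion, at 199 ± 67.4 RPKM. Enpep, the glutamyl aminopeptidase, stood at 113 ± 21.9 RPKM in crypts, which overlapped with Mgam but not with Dpp4 below it. The lowest 5 in crypts, Dpp4, Lct, Treh, Ace and Mme, had means from 26.7 to 35.9 RPKM and each overlapped with its neighbour.

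In villi Alpi was second at 524 ± 101 RPKM, Ace was the fifth at 216 ± 88.6 RPKM after being the ninth in crypts, and Dpp4 went from the sixth to the ninth place. Sis at 387 ± 256 RPKM and Mgam at 281 ± 203 RPKM had the largest SD relative to the mean among the villus libraries, and all neighbours from Alpi down to Treh overlapped. Dpp4 at 68.9 ± 31.1 RPKM and Mme at 59.5 ± 34.1 RPKM were lowest and lay without overlap below Treh. The mean level of the highest member was 16.4 times that of the lowest in crypts and 17.3 times in villi. These orders rest on the transcript length used: with the median annotated length in place of the longest the ratio in crypts was 59.8. With that length Dpp4 ranked 4 in both tissues, Ace ranked 9 in crypts and 8 in villi, and Treh was lowest in both.

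**Figure D1:**
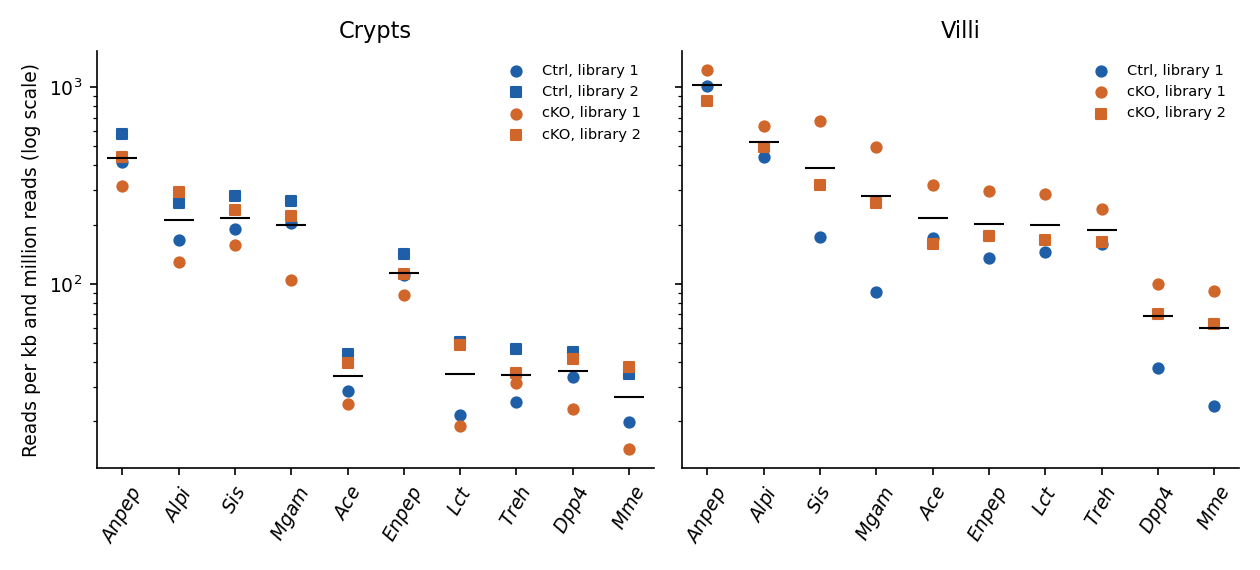
RPKM, the CPM per kilobase of longest transcript (log axis), of the 10 enzyme genes in crypts (left) and villi (right), 1 point per library, Ctrl in blue and Gli1-PtgscKO (cKO) in orange, with a black bar at the mean. Anpep is highest in both tissues, and on this scale the Ctrl point is the lowest villus point of each gene except Anpep and Ace.

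Villi and crypts were set side by side in CPM, with no test because the authors normalized the tables separately. On this scale the typical gene was lower in villi, with a median log2 difference over the 11227 shared genes of -1.06 in Ctrl and -0.56 in Gli1-PtgscKO mice, while the median of the 10 enzymes was 0.58 and 1.49. Relative to the median gene, 9 of 10 enzymes in Ctrl and 10 of 10 in Gli1-PtgscKO mice were thus more abundant in villi, and these counts were the same when the libraries were scaled by TMM (trimmed mean of M values), which brings the median gene to -0.09 and -0.02.

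Ace, Treh and Lct differed most between crypt and villus in Ctrl mice. Ace, the peptidyl dipeptidase that also makes angiotensin II, measured 139.6 and 217 CPM in Ctrl crypts, 119.7 and 194 CPM in Gli1-PtgscKO crypts, 837 CPM in the Ctrl villi and 1561 and 782 CPM in Gli1-PtgscKO villi. Treh, the trehalase that splits the disaccharide of fungi and insects, measured 51.5 and 95.4 CPM in Ctrl crypts, 64.1 and 72.5 CPM in Gli1-PtgscKO crypts, 327 CPM in the Ctrl villi and 493 and 336 CPM in Gli1-PtgscKO villi. Lct, the lactase that splits milk sugar, measured 133 and 314 CPM in Ctrl crypts, 116 and 301 CPM in Gli1-PtgscKO crypts, 894 CPM in the Ctrl villi and 1774 and 1031 CPM in Gli1-PtgscKO villi. For all 3 every villus library lay above every crypt library, and the geometric mean in villi was 4.78, 4.62 and 4.36 times that in crypts in Ctrl mice and 7.21, 5.91 and 7.20 times in Gli1-PtgscKO mice. Alpi, at 392 and 603 CPM in Ctrl crypts, 303 and 688 CPM in Gli1-PtgscKO crypts, 1027 CPM in the Ctrl villi and 1487 and 1162 CPM in Gli1-PtgscKO villi, was separated in the same way, as was Anpep, at 1583 and 2188 CPM in Ctrl crypts, 1188 and 1678 CPM in Gli1-PtgscKO crypts, 3833 CPM in the Ctrl villi and 4657 and 3243 CPM in Gli1-PtgscKO villi. These 5 of 10 members compare with 11.1% of the shared genes whose villus libraries all exceeded all crypt libraries, and the same 5 were the members with the Ctrl villi above both Ctrl crypts, against 21.4% of the shared genes. With TMM scaling both counts were 9 of 10, against 26.6% and 44.5% of the shared genes, Mgam being the exception.

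The other 5 members had a Ctrl villus level within or below the range of the Ctrl crypts in CPM. Mgam measured 1328 and 1719 CPM in Ctrl crypts, 683 and 1432 CPM in Gli1-PtgscKO crypts, 588 CPM in the Ctrl villi and 3207 and 1678 CPM in Gli1-PtgscKO villi. Its Ctrl villus value was 0.389 times the mean of the Ctrl crypts, whereas the Gli1-PtgscKO villi were 2.34 times their crypts. Sis measured 1131 and 1671 CPM in Ctrl crypts, 940.1 and 1413 CPM in Gli1-PtgscKO crypts, 1025 CPM in the Ctrl villi and 3990.2 and 1901 CPM in Gli1-PtgscKO villi, so its ratio was 0.746 in Ctrl and 2.39 in Gli1-PtgscKO mice. Mgam and Sis were below both Ctrl crypts, as were 73.6% of the shared genes. With TMM scaling only Mgam stayed below, at 0.816 times the Ctrl crypts, and Sis was at 1.57 times.

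Mme, the endopeptidase neprilysin, Dpp4, the dipeptidyl peptidase that cuts dipeptides ending in proline or alanine from peptides, and Enpep had Ctrl ratios of 0.906, 0.956 and 1.08 and Gli1-PtgscKO ratios of 3.24, 2.68 and 2.28. The 5 members without a higher Ctrl villus level were thus above both crypts in both Gli1-PtgscKO villus libraries, a pattern held by 4.12% of the shared genes. That contrast rests on the single Ctrl villus library and on the scaling: with TMM it held for 1 member, Mgam, and for 5.64% of the shared genes. The ratios between tissues were not corrected for transcript length. Over all genes the genotype differences moved with that length, with a Spearman rho of 0.54 in villi and -0.52 in crypts. Both Gli1-PtgscKO villus libraries exceeded both Gli1-PtgscKO crypts for all 10 members, against 16% of the shared genes in CPM and 33.6% with TMM scaling, where the count was also 10.

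**Figure D2:**
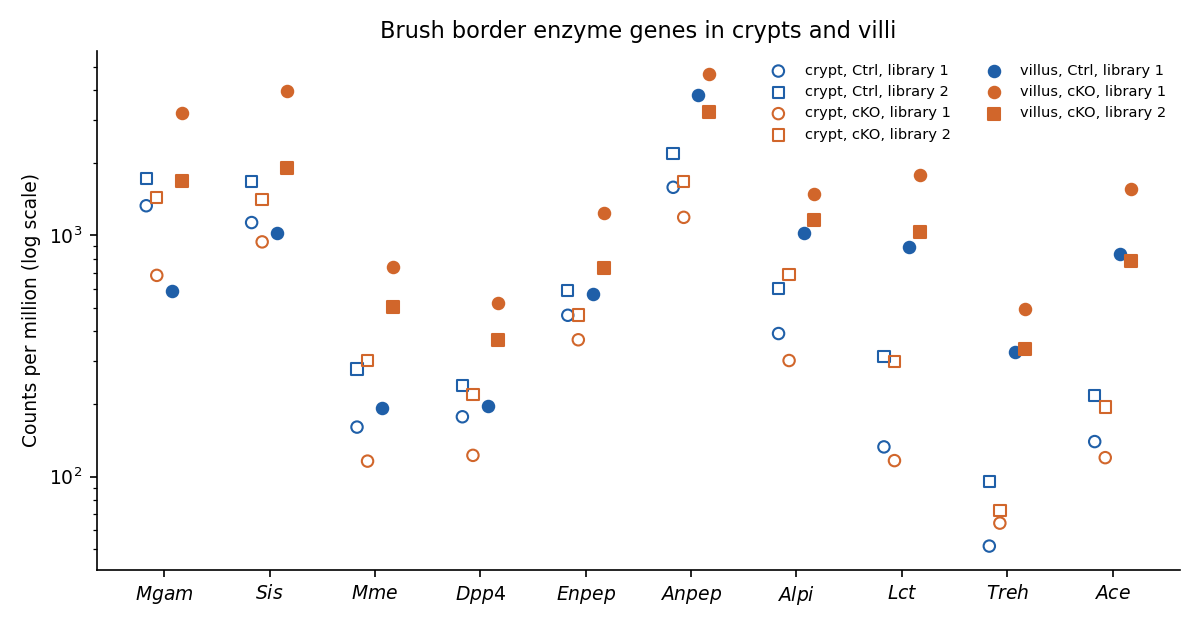
CPM (log axis) of each enzyme gene in crypts (open symbols) and villi (filled symbols), 1 point per library, Ctrl in blue and Gli1-PtgscKO (cKO) in orange, ordered from the lowest to the highest villus to crypt difference in Ctrl. The filled blue point lies below the open points for Mgam and far above them for Lct, Treh and Ace.

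The start regions of the members at both ends of this order are shown, since factors of the HNF4, CDX and GATA families are known to act close to the start of several brush border genes. Each stretch is 300 bases of the RefSeq reference for GRCm38.p6, from 250 bases before to 50 bases after a transcript start, read 5′ to 3′ on the gene's strand. Capitals mark the letters of 4 short motifs sought on both strands: the CDX motif TTTATG, the HNF4 motif CAAAGTCCA, the GATA motif AGATAA and the TATA box TATAAA. A match describes these letters only. Mgam (chr6:40628581-40628880, plus strand) and Sis (chr3:72967814-72968113, minus strand) had the lowest villus to crypt ratios in Ctrl mice, Ace (chr11:105967698-105967997, plus strand, the upstream one of its 2 listed starts), Treh (chr9:44672983-44673282, plus strand) and Lct (chr1:128328269-128328568, minus strand) the highest, and Alpi (chr1:87101557-87101856, minus strand) lay between them.
Mgam: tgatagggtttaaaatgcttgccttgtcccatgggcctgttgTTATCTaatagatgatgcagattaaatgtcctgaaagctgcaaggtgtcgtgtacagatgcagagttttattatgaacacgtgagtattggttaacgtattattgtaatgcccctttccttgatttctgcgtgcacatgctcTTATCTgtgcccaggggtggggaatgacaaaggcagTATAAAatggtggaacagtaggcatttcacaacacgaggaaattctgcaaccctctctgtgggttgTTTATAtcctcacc
Sis: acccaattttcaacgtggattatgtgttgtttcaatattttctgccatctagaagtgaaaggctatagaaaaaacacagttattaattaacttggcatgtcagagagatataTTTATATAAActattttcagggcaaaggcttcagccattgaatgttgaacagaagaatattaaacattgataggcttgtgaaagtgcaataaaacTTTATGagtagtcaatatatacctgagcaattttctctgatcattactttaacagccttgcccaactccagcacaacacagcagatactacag
Lct: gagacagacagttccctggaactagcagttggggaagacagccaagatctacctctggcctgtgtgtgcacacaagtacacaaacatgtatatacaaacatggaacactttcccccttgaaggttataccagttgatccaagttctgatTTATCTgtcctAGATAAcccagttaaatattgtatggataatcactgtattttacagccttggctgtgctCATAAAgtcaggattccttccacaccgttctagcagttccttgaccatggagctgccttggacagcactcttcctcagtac
Treh: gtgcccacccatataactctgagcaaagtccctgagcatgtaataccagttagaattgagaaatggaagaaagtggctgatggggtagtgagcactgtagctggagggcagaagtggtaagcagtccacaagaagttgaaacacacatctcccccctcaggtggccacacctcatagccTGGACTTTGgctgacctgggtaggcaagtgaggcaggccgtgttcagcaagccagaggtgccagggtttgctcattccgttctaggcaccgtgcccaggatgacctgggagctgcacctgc
Ace: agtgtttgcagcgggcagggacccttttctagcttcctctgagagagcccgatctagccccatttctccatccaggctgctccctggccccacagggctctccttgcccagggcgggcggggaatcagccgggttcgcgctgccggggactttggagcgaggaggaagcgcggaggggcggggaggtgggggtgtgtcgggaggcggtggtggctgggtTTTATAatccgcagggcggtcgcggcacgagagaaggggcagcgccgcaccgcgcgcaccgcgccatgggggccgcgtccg
Alpi: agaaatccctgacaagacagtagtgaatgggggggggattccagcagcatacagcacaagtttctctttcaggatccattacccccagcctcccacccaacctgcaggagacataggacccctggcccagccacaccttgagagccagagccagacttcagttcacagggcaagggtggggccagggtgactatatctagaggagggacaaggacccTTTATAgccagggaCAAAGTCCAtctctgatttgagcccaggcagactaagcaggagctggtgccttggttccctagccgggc

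All 10 members had a RefSeq window, 13 windows in all because Mme had 3 starts and Ace 2. The HNF4 letters were found at Treh and Alpi, and in 0.475% of all 32851 RefSeq windows of this length. GATA letters were found at Lct, Mgam and Dpp4, with a share of 11.2% among all windows, and CDX letters at Sis and Lct, with a share of 11.9%. TATA letters were found at 6 of the 10 genes, Sis, Mgam, Dpp4, Enpep, Ace and Alpi. That was 6 of the 13 member windows, against 13.6% of all windows, with matches counted on either strand and at any position. The 2 TATA matches at Sis overlap each other. GATA letters thus occurred at both Mgam, the lowest, and Lct, among the highest.

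The comparison of Gli1-PtgscKO with Ctrl crypts addresses whether loss of prostaglandin synthesis in Gli1+ stromal cells alters the neighbouring epithelium. No member passed p under 0.01 with a log2 fold change over 1, the threshold of the study, which 0.173% of the 11554 genes passed as higher and 0.00866% as lower. No gene of the table reached an adjusted p under 0.05 (limma-trend with Benjamini-Hochberg adjustment, 0% of genes; edgeR called 0 and DESeq2 11 genes in the table, and limma-trend 4 without the second and 0 without the first Ctrl library), and at an unadjusted p under 0.05 there were 73 genes (0.632%), none of them a member. The values of the genotypes overlapped for all 10 members, against 79% of all genes, and the median log2 fold change of the members was -0.15, beside -0.01 for all genes. That median rested on single libraries: it was -0.49 without the first and 0.18 without the second Ctrl library, and 0.08 without the first and -0.53 without the second Gli1-PtgscKO library. An exact permutation test of 2 against 2 libraries cannot give a p below 0.333, so the genotypes were tested only by fits across all genes.

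Among the disaccharidases, Mgam (ENSMUSG00000068587, chr6:40628831-40769123) had the most negative fold change. Its normalized counts, the reads after division by the size factors of the authors, were 24320.4 and 32629 in Ctrl crypts, and 13977 and 26922 in Gli1-PtgscKO crypts. The first Gli1-PtgscKO library was the lowest of the 4 and the other lay between the Ctrl libraries. The means were 28475 ± 5875 in Ctrl and 20449 ± 9153.5 in Gli1-PtgscKO crypts (SD, n = 2 each), and the log2 fold change was -0.54 ± 0.41 (SE, n = 2 against 2) with a 95% interval from -1.52 to 0.44. It did not pass the test (limma-trend, unadjusted p = 0.233, Benjamini-Hochberg adjusted p = 1.00). Without the second Gli1-PtgscKO library the log2 fold change of Mgam was -1.01 and passed both thresholds, as 881 of all genes did for that of the study and 1987 for adjusted p under 0.05. Without the first Gli1-PtgscKO library it was -0.07, and without the first or the second Ctrl library -0.75 or -0.33, with neither threshold passed.

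Sis (ENSMUSG00000027790, chr3:72888557-72967863) gave 20715.5 and 31717 in Ctrl crypts, and 19243.5 and 26552 in Gli1-PtgscKO crypts. Each genotype had a low and a high library, and the log2 fold change was -0.18 ± 0.37 (SE, n = 2 against 2) with a 95% interval from -1.06 to 0.69. Lct (ENSMUSG00000026354, chr1:128284756-128328318) spread more widely within each genotype, with 2431 and 5962 in Ctrl crypts, and 2383 and 5649 in Gli1-PtgscKO crypts. The higher library exceeded the lower by 2.45 times in Ctrl and 2.37 times in Gli1-PtgscKO crypts, against a log2 fold change between the genotypes of -0.05 ± 0.54 (SE, n = 2 against 2) with a 95% interval from -1.34 to 1.23. Treh (ENSMUSG00000032098, chr9:44673233-44686305) was the only member with both Gli1-PtgscKO values inside the range of the Ctrl values, which were 943 and 1812 in Ctrl, with 1311 and 1362 in Gli1-PtgscKO crypts. Its log2 fold change was 0.03 ± 0.35 (SE, n = 2 against 2) with a 95% interval from -0.79 to 0.86.

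The peptidases likewise overlapped. Anpep (ENSMUSG00000039062, chr7:79821803-79861059) measured 29007 and 41535 in Ctrl crypts, and 24328 and 31530.2 in Gli1-PtgscKO crypts, with means of 35271 ± 8859 in Ctrl and 27929 ± 5093 in Gli1-PtgscKO crypts (SD, n = 2 each). Enpep (ENSMUSG00000028024, chr3:129269175-129332720) measured 8545 and 11244 in Ctrl crypts, and 7555 and 8785 in Gli1-PtgscKO crypts, the narrowest spread in Ctrl of the 10 members, with 1.32 times between the Ctrl libraries. Its interval was accordingly the shortest, from -0.94 to 0.40 on the log2 scale around -0.27. A change past 2-fold in either direction lay outside the intervals of Enpep, Treh and Ace, and inside at least 1 end of the intervals of the other 7 members.

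Dpp4 (ENSMUSG00000035000, chr2:62330073-62412231) measured 3241 and 4531 in Ctrl crypts, and 2505 and 4118 in Gli1-PtgscKO crypts. Ace (ENSMUSG00000020681, chr11:105967945-105989964) measured 2557 and 4122 in Ctrl crypts, and 2451 and 3644 in Gli1-PtgscKO crypts. Mme (ENSMUSG00000027820, chr3:63241537-63386030) measured 2937 and 5300.2 in Ctrl crypts, and 2371 and 5692 in Gli1-PtgscKO crypts, and here the Gli1-PtgscKO libraries held both the lowest and the highest value. The log2 fold changes of Anpep, Dpp4, Mme and Ace ranged from -0.33 for Anpep to -0.10 for Mme, with standard errors from 0.33 to 0.47.

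Alpi (ENSMUSG00000079440, chr1:87098002-87101606), which dephosphorylates bacterial lipopolysaccharide and nucleotides at the cell surface, measured 7177 and 11452 in Ctrl crypts, and 6197 and 12939 in Gli1-PtgscKO crypts. As for Mme, the Gli1-PtgscKO libraries enclosed the Ctrl libraries, and the log2 fold change was -0.02 ± 0.43 (SE, n = 2 against 2) with a 95% interval from -1.03 to 1.00. Akp3, the neighbouring intestinal alkaline phosphatase gene, is close to Alpi in sequence, so reads could have been divided between them. Per length, the ratio of Alpi to Akp3 was 1.96 and 0.979 in Ctrl and 2.62 and 1.07 in Gli1-PtgscKO crypts, and from 1.41 to 2.04 in the villus libraries.

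**Figure D3:**
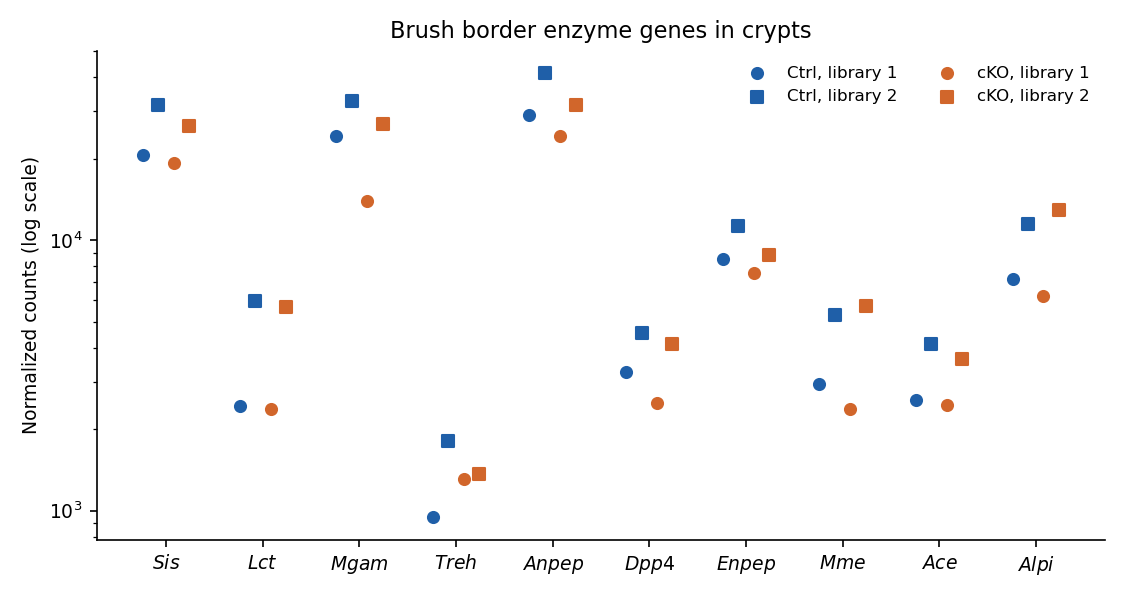
Normalized counts (log axis) of the 10 enzyme genes in the 4 crypt libraries, Ctrl in blue and Gli1-PtgscKO (cKO) in orange, circles for library 1 and squares for library 2. Blue and orange points overlap for every gene, and each square lies above the circle of the same color.

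Libraries of the same genotype also differed in crypts. All 10 members were higher in the second than in the first library of both genotypes, which 31.7% of all genes were. Ctrl and Gli1-PtgscKO mice that share a library number are not said to share a litter or a day. Whether the numbers stand for a pairing cannot be told here. The pattern extended to Akp3, which measured 2631 and 8409 in Ctrl and 1698 and 8665 in Gli1-PtgscKO crypts, and to Tmprss15, the enteropeptidase that activates trypsinogen, at 74.0 and 139 in Ctrl and 16.8 and 141 in Gli1-PtgscKO crypts. It did not extend to all enterocyte genes: the summed enterocyte markers were 3533 and 4551 CPM in Ctrl and 4339 and 4122 CPM in Gli1-PtgscKO crypts. The 5 listed T cell markers summed to 41.2 and 106 CPM in Ctrl and 45.4 and 101 CPM in Gli1-PtgscKO crypts, and 6 Paneth cell markers to 24772 and 20481 CPM in Ctrl and 35399.9 and 20498 CPM in Gli1-PtgscKO crypts. The part of such markers in the enzyme values was not tested.

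**Figure D4:**
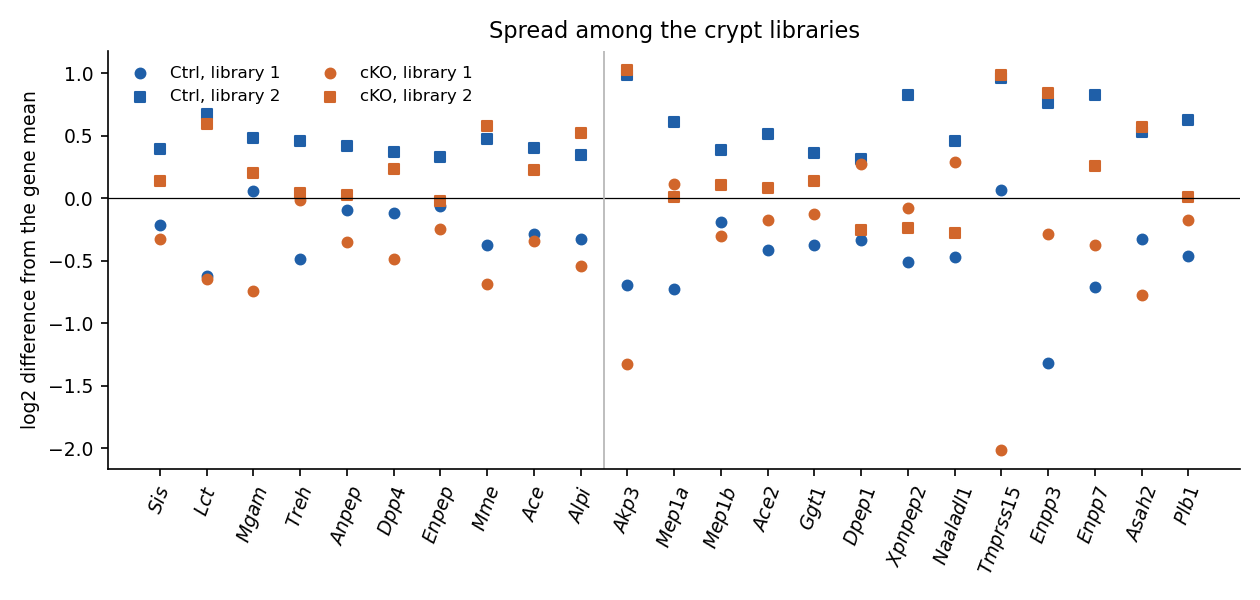
Difference of log2 normalized counts from the mean of the gene over the 4 crypt libraries, for the 10 enzyme genes (left of the grey line) and 13 other brush border hydrolases (right), Ctrl in blue and Gli1-PtgscKO (cKO) in orange, circles for library 1 and squares for library 2. Both squares lie above the circle of their own color for the 10 enzyme genes, but not for Mep1a, Dpep1, Xpnpep2 and Naaladl1.

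In villi the same comparison is given as a description, since a test there must assume the spread of the lone Ctrl library. Both Gli1-PtgscKO libraries exceeded the Ctrl library for Sis, Mgam, Dpp4 and Mme, 4 of 10 members against 43.7% of the 12701 genes. Both were lower for Anpep, against 44.2% of genes, and the remaining 5 members had a Gli1-PtgscKO library on each side of Ctrl, or 12.2% of genes. Over 2-fold higher in both were Mgam and Mme, 2 of 10 members, beside 10.6% of all genes. With library size scaling the same 2 members stood beside 20.7% of all genes. None was over 2-fold lower in both, as 6.4% of genes were. With a single Ctrl library the spread among Ctrl villi is unknown.

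Mgam measured 9894 in the Ctrl villus library and 38478 and 21764 in the Gli1-PtgscKO villus libraries, 3.89 and 2.20 times the Ctrl level. Sis measured 17266 in the Ctrl villus library and 47879 and 24653 in the Gli1-PtgscKO villus libraries, or 2.77 and 1.43 times Ctrl. Both digest starch products, and per length Sis exceeded Mgam by 1.90 times in Ctrl and by 1.36 and 1.23 times in Gli1-PtgscKO villi. Lct, in contrast, measured 15058 in the Ctrl villus library and 21290.2 and 13372 in the Gli1-PtgscKO villus libraries, with Ctrl between the Gli1-PtgscKO libraries. The Lct to Sis ratio per length was 0.841 in Ctrl and 0.429 and 0.523 in Gli1-PtgscKO villi, beside 0.113 and 0.181 in Ctrl and 0.119 and 0.205 in Gli1-PtgscKO crypts. Treh measured 5513 in Ctrl and 5919 and 4363 in Gli1-PtgscKO villi.

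Of the peptidases, Mme measured 3225 in the Ctrl villus library and 8853 and 6546 in the Gli1-PtgscKO villus libraries, 2.74 and 2.03 times Ctrl, and Dpp4 measured 3307 in Ctrl and 6286 and 4789 in Gli1-PtgscKO villi, 1.90 and 1.45 times Ctrl. Anpep was the only member with both Gli1-PtgscKO values under Ctrl, at 64540.2 in Ctrl and 55882 and 42049.6 in Gli1-PtgscKO villi. Scaling by library size, which raises the median log2 difference of all genes from -0.01 to 0.42, brought its log2 difference from -0.41 to 0.02, so its lower level was relative to the other genes. On that scale both Gli1-PtgscKO libraries exceeded Ctrl for 8 of 10 members, all but Anpep and Ace, and for 64.4% of the shared genes, and no member was lower in both, against 23.5%. Directions in villi are otherwise given relative to the median gene, while CPM values and their sums follow library size. Enpep, at 9591 in Ctrl and 14805 and 9477 in Gli1-PtgscKO villi, and Ace, at 14092 in Ctrl and 18727 and 10135 in Gli1-PtgscKO villi, had Ctrl between the Gli1-PtgscKO libraries. The same held for Alpi, at 17300.4 in Ctrl and 17847 and 15062 in Gli1-PtgscKO villi. In every member the first Gli1-PtgscKO villus library was above the second, as for 49.6% of all genes.

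Transcript length moved with these differences. Over all matched genes the log2 difference between Gli1-PtgscKO and Ctrl had a Spearman rho of 0.54 with the longest annotated transcript in villi (12698 genes) and -0.52 in crypts (11552 genes), as a description across genes of the same libraries. The members are mostly long: 8 of 10, all but Treh with 2048 bases and Alpi with 2337 bases, exceed the median of 3264.5 bases, and Mme with 8039 bases, Mgam with 6488 bases, Lct with 6174 bases and Sis with 5953 bases are the longest. Over the 10 members rho was 0.85 in villi and -0.30 in crypts. After the length correction described next it was 0.47 and 0.31. Each library was corrected for the trend with length. In villi the log2 differences were then 0.93 in place of 1.55 for Mgam and 0.43 in place of 1.24 for Mme. They were 0.45 in place of 0.99 for Sis, and -0.41 in place of 0.16 for Lct. No member was then over 2-fold higher in both Gli1-PtgscKO libraries, beside 6.8% of all genes (10.6% before the correction). In crypts the trend differed between the Gli1-PtgscKO libraries, with a rho of -0.66 for the first and 0.31 for the second against the mean of Ctrl, and the corrected log2 fold change was -0.34 in place of -0.54 for Mgam. What gave rise to the length trend was not tested.

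**Figure D5:**
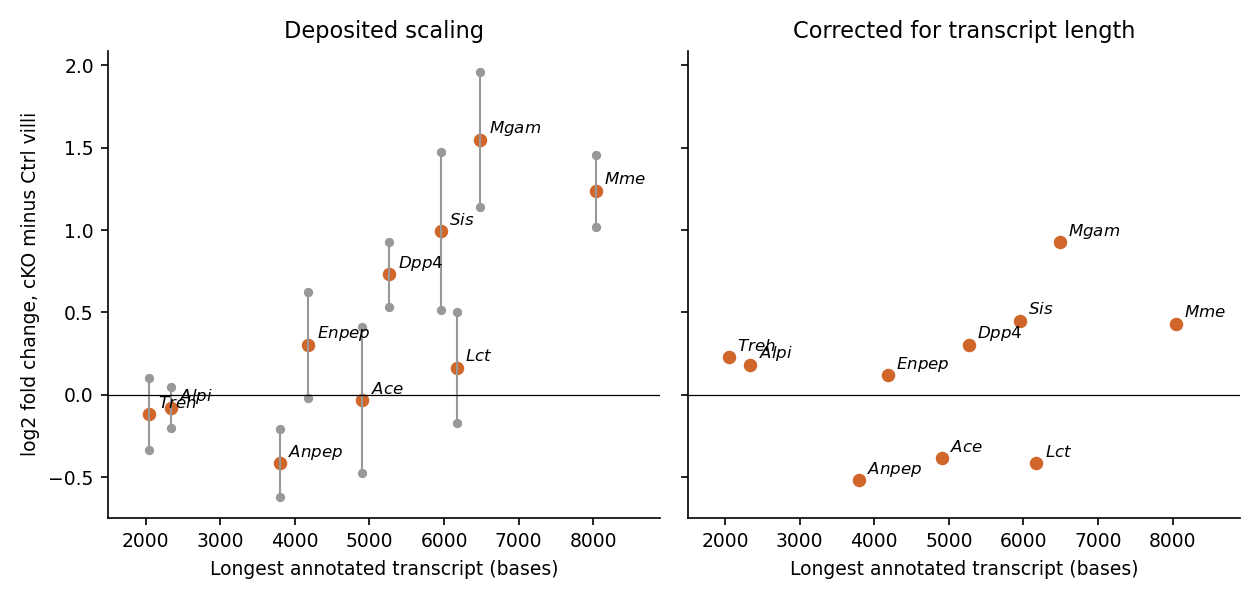
Log2 fold change of the 10 enzyme genes between Gli1-PtgscKO (cKO) and Ctrl villi against the length of the longest annotated transcript in bases, as deposited (left, orange for the mean of the 2 cKO libraries and grey for each) and after correction of each library for transcript length (right). On the left the long transcripts of Mgam, Mme and Sis are highest, and on the right all 10 genes lie between -0.52 and 0.93.

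Levels of cell markers also differed between the villus preparations. Stem and dividing cell markers summed to 177 CPM in Ctrl and 466 and 352 CPM in Gli1-PtgscKO villi, the enterocyte markers to 30334 CPM in Ctrl and 29489.7 and 26516 CPM in Gli1-PtgscKO villi, and 5 B and plasma cell markers to 386 CPM in Ctrl and 68.2 and 109 CPM in Gli1-PtgscKO villi. These sums follow library size. Relative to the median gene, 5 of 8 enterocyte markers were lower and 1 higher in both Gli1-PtgscKO libraries, against 44.2% and 43.7% of genes. Their median log2 difference was -0.47, and 0.03 after length correction. The median of the stem and dividing cell markers was 1.03, and 0.88 after the correction. Markers of the ileum, the last stretch of the small intestine, were lower in both Gli1-PtgscKO villus libraries for 5 of 6 genes, beside 44.2% of all genes. The 5 of them in both tables summed to 1349 CPM in Ctrl and 523 and 709 CPM in Gli1-PtgscKO villi. Among them Fabp6, the ileal bile acid binding protein, measured 19965 in Ctrl and 4645 and 7501 in Gli1-PtgscKO villi. Its log2 difference of -1.76 was -0.85 after length correction. The median of the 6 ileum markers was -0.76, and -0.60 after the correction. The 6 markers of the proximal intestine summed to 1664 CPM in Ctrl and 1578 and 1709 CPM in Gli1-PtgscKO villi. Of 7 macrophage and neutrophil markers 6 were lower in both, 4 of them over 2-fold, beside 44.2% and 6.4% of all genes. The median log2 difference of the 7 was -1.23, and -0.76 after length correction. S100a8 and S100a9, among the 4 over 2-fold lower, had at most 55.6 normalized counts in any villus library. The part of these markers in the enzyme values was not tested.

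Other genes of the brush border were compared as fixed lists. Of 14 further hydrolases 13 were listed, and none was called in crypts. There all 13 overlapped, beside 79% of all genes, and the median log2 fold change was -0.11. In villi 6 of 13 were higher and 5 lower in both Gli1-PtgscKO libraries, near the 43.7% and 44.2% of all genes, and 3 were over 2-fold higher, beside 10.6%. Enpp3, an ectonucleotidase, was the highest, with 755 in Ctrl and 1713 and 2525 in Gli1-PtgscKO villi, a log2 difference of 1.46 and, corrected for length, 1.26. Ggt1, the gamma-glutamyltransferase of glutathione breakdown, was the lowest, with 15249 in Ctrl and 9479.9 and 8327 in Gli1-PtgscKO villi.

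Of 14 listed genes that build the microvillus 8 were lower and 2 higher in both Gli1-PtgscKO villus libraries, beside 44.2% and 43.7% of all genes. Their median log2 difference was -0.43 beside -0.01 for all genes, and 2 were over 2-fold lower, beside 6.4%. These values are relative to the median gene. In CPM, which follows library size, the 14 genes summed to 13220 in Ctrl and 12950 and 11939 in Gli1-PtgscKO villi. Espn, which bundles the actin core, measured 7913 in Ctrl and 2703 and 3206 in Gli1-PtgscKO villi, and its log2 difference of -1.43 became -1.72 after length correction. Vil1, villin, measured 56094.5 in Ctrl and 37093 and 38163 in Gli1-PtgscKO villi. Anks4b, a scaffold of the links between microvilli, was the highest of the list with 1982 in Ctrl and 2487 and 2782 in Gli1-PtgscKO villi. In crypts all 14 overlapped, beside 79% of all genes, none was called, and the median was -0.01.

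Of the 12 symbols of sugar, peptide and amino acid uptake 10 were listed, and none was called in crypts. Slc1a1, the glutamate transporter, at 1549.9 and 1463 in Ctrl and 1379.6 and 973 in Gli1-PtgscKO crypts, and Slc2a5, the fructose transporter, at 993 and 1000.1 in Ctrl and 924 and 833 in Gli1-PtgscKO crypts, had both Gli1-PtgscKO values under both Ctrl values, with log2 fold changes of -0.38 and -0.18 that did not pass (limma-trend, unadjusted p = 0.206 and 0.472, both adjusted p = 1.00). In villi 3 of 10 were higher and 2 lower in both libraries, beside 43.7% and 44.2% of all genes, the ends being Slc6a20a, a proline transporter, at 988 in Ctrl and 2476 and 1521 in Gli1-PtgscKO villi, and Slc2a5, at 3499 in Ctrl and 2728 and 1597 in Gli1-PtgscKO villi.

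The genes whose profile over the 7 libraries was most like the mean profile of the members were Slc2a2, with a root mean square difference of 0.0895 on the log2 scale, Clic5 with 0.157, Cyp3a13 with 0.166, Slc43a2 with 0.171 and Mep1b with 0.175. Slc2a2, the glucose transporter GLUT2, measured 84.7 and 158 CPM in Ctrl and 65.7 and 117 CPM in Gli1-PtgscKO crypts, and 179 CPM in Ctrl and 416 and 248 CPM in Gli1-PtgscKO villi. Among the members Alpi, at 0.217, lay closest to that mean, and Mgam, at 0.677, lay farthest.

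Of the transcription factors chosen as regulators of enterocyte genes, 10 are reported, and none of them was called in crypts. Pdx1 was higher in both Gli1-PtgscKO crypts, with 248 and 261 in Ctrl and 329 and 403 in Gli1-PtgscKO crypts. It did not pass (limma-trend, unadjusted p = 0.134, Benjamini-Hochberg adjusted p = 1.00). Log2 fold changes of Hnf4a, Hnf4g, Cdx1, Cdx2, Gata4, Gata6, Isx, Onecut2 and Prdm1 in crypts lay between -0.52 for Onecut2 and 0.25 for Cdx2. The genotypes overlapped for each of these factors, as for 79% of all genes.

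In villi 6 of the 10 factors were lower in both Gli1-PtgscKO libraries relative to the median gene, namely Hnf4a, Cdx1, Cdx2, Gata4, Isx and Pdx1, and Hnf4g, Onecut2 and Prdm1 were higher, beside 44.2% of all genes lower and 43.7% higher. After length correction the median log2 difference of the 10 factors was -0.05 in place of -0.31, with Isx at 0.00 in place of -0.44 and Pdx1 at 0.02 in place of -0.29. Cdx1, at 2729 in Ctrl and 1487 and 1343 in Gli1-PtgscKO villi, was the lowest of the list, with a log2 difference of -0.95. Hnf4a measured 10219 in Ctrl and 7646 and 8544 in Gli1-PtgscKO villi, whereas its paralog Hnf4g measured 2331 in Ctrl and 3957 and 3457 in Gli1-PtgscKO villi, a log2 difference of 0.67 that was 0.93 after length correction. Onecut2 had the highest value, at 214 in Ctrl and 529.8 and 583 in Gli1-PtgscKO villi, but its log2 difference of 1.37 became 0.04 after the correction.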

How the data were processed

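Libraries of crypts and villi (4 deposited columns a tissue) were grouped by the genotype in the sample labels. The authors aligned reads with STAR to mm10 and used DESeq2, per the submitters' processing notes. The counting program, annotation and strand setting were not given in the sources used here. The deposited values are a signal, namely gene counts that the authors divided by size factors. Columns with the authors' fold changes and p-values were not used. All values (100%, tolerance 0.01 read) were whole multiples of 1 step per library, which gave back the reads. The tables hold only expressed genes, with a smallest mean of 48.4 normalized counts in crypts and 8.73 in villi, so that a gene not listed is not a gene at 0.

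In crypts log2(normalized count + 1) of all genes was fitted with limma-trend 3.58.1 in R 4.3.3, without a replicate block, two-sided, with Benjamini-Hochberg adjustment over all genes. Villi have 1 distinct Ctrl library, so values and log2 differences are given as a description, as they are across tissues, with a limma-trend fit of the villi among the alternatives. CPM was computed over the 11227 shared genes. Lengths and positions come from GENCODE M21 (GRCm38), which matched 11552 of 11554 crypt and 12698 of 12701 villus genes. The length correction was a lowess curve of span 0.3 per library. The fit was tested on simulated data. Alternatives were scaling, filters, pseudocount, length, DESeq2 1.42.0 and edgeR 4.0.16 on the recovered reads (edgeR was chosen after seeing the data) and leaving out each library.

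The members and lists were chosen with earlier results of these data known. Named beside the members are, for each list, the genes with the highest and lowest fold change among those with both Gli1-PtgscKO libraries on 1 side of Ctrl, the listed transcription factors (a few items are not reported here), and the 5 genes most alike in profile. Fabp6, Akp3, Tmprss15, Vil1, Mep1a, Dpep1, Xpnpep2, Naaladl1, S100a8, S100a9, Ptgs1, Ptgs2 and Gli1 are named outside this rule, after their values were seen. The study states 2 biological replicates. The limma-trend p-values weigh the genotype difference against the spread between these libraries, a spread estimated with information from all genes.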

Additional observations from a re-analysis of the deposited data

Results flagged for a closer look

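Pdx1, a transcription factor of the proximal intestine, drew attention because its difference had opposite signs in the tissues. In crypts it measured 248 and 261 in Ctrl and 329 and 403 in Gli1-PtgscKO crypts, both above both Ctrl libraries, with a log2 fold change of 0.52. In villi it measured 253 in Ctrl and 181 and 236 in Gli1-PtgscKO villi, both below the Ctrl library, with a log2 difference of -0.29. The difference between the tissues was not tested, and after length correction the villus value was 0.02.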

How the results depend on the processing

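The count of members called in crypts stayed at 0 under other scalings, filters, pseudocounts, length correction, DESeq2 and edgeR, but leaving out single libraries gave 0 to 1 members at the study threshold and at adjusted p under 0.05, and 0 to 2 other list genes. The 1 member was Mgam, at a log2 fold change of -1.01 without Gli1-PtgscKO crypt library 2, when 881 of all genes passed the study threshold beside 21 with all libraries. Signs of small fold changes turned: Treh was -0.041 with library size scaling, -0.038 with DESeq2, -0.037 with edgeR and -0.10 with length correction, Alpi was 0.046 with DESeq2 and 0.047 with edgeR, and Lct and Mme were 0.13 and 0.14 with length correction. Leaving out single libraries moved Sis between -0.49 and 0.13, Lct between -0.70 and 0.59, Mgam between -1.01 and -0.07, Treh between -0.44 and 0.50, Dpp4 between -0.61 and 0.10, Mme between -0.73 and 0.53, Ace between -0.46 and 0.22 and Alpi between -0.55 and 0.51. Same-numbered crypt libraries deviated together with r = 0.25, over only 2 pairs, so the numbers are not taken to pair the mice. With the replicate block 0 members were called (median log2 fold change -0.15), while calls over all genes at the study threshold rose from 21 to 78, and at adjusted p under 0.05 from 0 to 34. With the block and length correction they were 33 and 0, and Lct was 0.13, Treh -0.10 and Mme 0.14. In villi, members over 2-fold higher in both Gli1-PtgscKO libraries numbered 0 after length correction, beside 6.8% of all genes. They numbered 2 without library 1, beside 13.4% of all genes, and 3 without library 2 (Sis added), beside 14.3%. A limma-trend fit that takes the lone Ctrl villus library to vary like the others called Mgam and Mme at the study threshold, as it called 9.82% of all genes as higher. Between tissues, TMM scaling gave 9 members with every villus above every crypt library, 9 with the Ctrl villi above both Ctrl crypts, and medians of 1.65 in Ctrl and 2.07 in Gli1-PtgscKO mice; without single libraries these counts were 5 to 9 (9 without the Ctrl villus library) and 5 to 8 (8 without Ctrl crypt library 2). The ratio of the highest to the lowest crypt level was 59.8 with median transcript lengths. Every member had 51.5 CPM or more in every library.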
